A study of Mus musculus and Homo sapiens with 14 samples.

Results

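The genes described here are the cadherins and protocadherins: every gene symbol that starts with Cdh followed by a digit, or with Pcdh, in the tables of a mouse lymphoma series. The rule found 94 such symbols among the 106528 entries of 2 tables, 93 of them in the EL4 tumour table and 94 in the EG7-OVA table. A member was described where its reads came to 10 or more in total in a table, which 61 members did in EL4 and 52 in EG7-OVA. Just inside that limit stood Pcdhb7 and Pcdhb10 with 10 reads in EL4 and Pcdhb12 and Pcdhgb1 with 10 reads in EG7-OVA, and just outside stood Cdh16 and Pcdhac2 with 9 reads in EL4 and Pcdhb15, Pcdhga2 and Pcdhga8 with 9 reads in EG7-OVA. The 59 genes of the Pcdha, Pcdhb and Pcdhg clusters were kept apart from the 35 unclustered members.

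RNA sequencing was done on 2 libraries in each group. EG7-OVA cells, a line made from the mouse T-cell lymphoma EL4 that expresses ovalbumin, were treated with azacytidine at 1.5 µM, decitabine at 0.2 µM or the solvent DMSO. Each treatment was given at 0, 24 and 48 h, and RNA was taken at 72 h. EL4 tumours were labelled P3 or P0, with no explanation of those names in the labels. All samples are labelled wild type, and neither the host of the tumours nor its age is stated. Both kinds of sample go back to 1 parent line. No label says that the 2 libraries of a group came from different cultures or mice, so a p-value here speaks of library-to-library spread, which may be technical. The DMSO libraries are called first and second by their numbers in the count table, which differ from those in the sample titles. The human NKYS cells of the series were not used here.

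Cadherins are membrane proteins that hold neighbouring cells together through repeated, calcium-binding extracellular domains. Classical cadherins bind catenins inside the cell, which link them to actin, whereas protocadherins bind more weakly and signal through other partners. The clustered protocadherin genes lie in a row on one chromosome, and each has its own first exon and promoter, which in neurons are switched on in varied combinations and are otherwise often methylated. Azacytidine and decitabine are cytidine analogues that, once built into DNA, trap DNA methyltransferases and lower methylation. DNA methylation was not measured in these libraries.

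Promoter sequences are shown for 4 unclustered protocadherins on which the results turn: Pcdh18 and Pcdh19, which had 1 read each over both DMSO libraries and at least 37 over the libraries of either drug, Pcdh10, which was lower with azacytidine, and Pcdh9, the most abundant member of the EL4 tumours. Each window runs 250 bases before to 50 bases after the RefSeq start in GRCm38.p6, is written on the gene's strand, and has its CG pairs, the sites at which DNA methyltransferases act, in capitals. The windows lie at chr3:49757267-49757566 (minus strand) for Pcdh18, chrX:133688944-133689243 (minus strand) for Pcdh19, chr3:45378148-45378447 (plus strand) for Pcdh10 and chr14:93890620-93890919 (minus strand) for Pcdh9.
Pcdh18: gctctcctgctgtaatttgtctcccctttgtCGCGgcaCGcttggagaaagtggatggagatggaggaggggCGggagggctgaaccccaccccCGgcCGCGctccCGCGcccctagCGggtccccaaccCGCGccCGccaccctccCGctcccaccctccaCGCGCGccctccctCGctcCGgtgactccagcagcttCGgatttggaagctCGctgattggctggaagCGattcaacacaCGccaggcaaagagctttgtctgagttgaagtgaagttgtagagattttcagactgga
Pcdh19: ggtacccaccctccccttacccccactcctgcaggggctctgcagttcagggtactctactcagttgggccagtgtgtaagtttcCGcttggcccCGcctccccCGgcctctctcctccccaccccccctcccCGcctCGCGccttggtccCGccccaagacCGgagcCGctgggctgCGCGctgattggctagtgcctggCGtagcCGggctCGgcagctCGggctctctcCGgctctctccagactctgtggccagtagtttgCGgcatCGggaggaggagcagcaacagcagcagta
Pcdh10: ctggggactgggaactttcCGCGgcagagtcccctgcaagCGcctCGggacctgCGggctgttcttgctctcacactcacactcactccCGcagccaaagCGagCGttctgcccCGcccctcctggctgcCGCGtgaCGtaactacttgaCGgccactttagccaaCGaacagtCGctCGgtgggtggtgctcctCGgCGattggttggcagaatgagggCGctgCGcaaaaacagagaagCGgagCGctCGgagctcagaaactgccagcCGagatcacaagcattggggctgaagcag
Pcdh9: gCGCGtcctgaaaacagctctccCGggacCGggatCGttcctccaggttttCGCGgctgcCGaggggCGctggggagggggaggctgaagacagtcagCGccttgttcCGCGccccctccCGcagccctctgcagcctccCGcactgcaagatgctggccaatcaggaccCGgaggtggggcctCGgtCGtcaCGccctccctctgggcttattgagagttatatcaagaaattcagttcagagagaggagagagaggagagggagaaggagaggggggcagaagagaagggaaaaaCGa

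These windows held 23 CG pairs for Pcdh18, 18 for Pcdh19, 24 for Pcdh10 and 19 for Pcdh9. The median over all 32841 RefSeq promoter windows was 7 CG pairs, and the 4 windows held more than 70.3% to 80.0% of them. In all, 22 of the 35 unclustered members were matched, and their median was 13 CG pairs. Cdh19, Cdh1, Cdh2, Cdh11 and Cdh17 had no window, so several members that were higher with the drugs are not covered. Cdh22 had the most, with 38, and Cdh10 the fewest, with 2. The letters CGCT, the core of an element shared by clustered protocadherin promoters, were found on either strand in 21 of the 22 matched members and in 61.8% of all windows. The letters CANNTG, the E-box, were found in 13 of 22 members and in 72.3% of all windows. A member counted if any of its windows matched (25 windows for 22 members), whereas the background is per window. CGCT itself holds a CG pair, and the members had more CG pairs at the median than all windows. The motifs were searched separately, matches may overlap, and a match is a description of the letters only.

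Library totals ran between 15690747 and 25328708 reads. The T-cell markers, a check of the labels, were high in all 10 libraries, with summed levels of 2941 to 4661 CPM (counts scaled to a library of fixed size after TMM normalization), although Cd8a or Cd8b1 was at 0 in every EG7-OVA library. In EG7-OVA cells the endothelial genes Kdr and Emcn, the fibroblast genes Col3a1 and Dcn and the macrophage genes C1qa, C1qb and C1qc had no read in any of the 6 libraries. Other genes of these lists were read: Pecam1 at 58.1 to 82.6 CPM, Fbln1 at 61.7 to 119 CPM and Cd68 at 5.63 to 28.4 CPM. The macrophage markers summed to 22.8 and 20.9 CPM with azacytidine, 39.2 and 34.2 CPM with decitabine, and 7.24 and 8.82 CPM with DMSO. The tumours held RNA of other cell types, with 14 of 14 endothelial, 12 of 12 fibroblast and 10 of 10 macrophage markers read in each library.

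In EG7-OVA cells, several cadherins and protocadherins that were nearly silent with DMSO were read with both drugs, led by Cdh19. Of 35 members tested with azacytidine against DMSO, 12 were higher and 1 was lower at an adjusted p under 0.05 (edgeR quasi-likelihood test, Benjamini-Hochberg over all genes tested). These 13 are 37.1% of the tested members, against 20.3% of all 19123 genes tested, of which 13.6% were higher and 6.7% lower. With decitabine against DMSO, 9 of 35 members were higher and none was lower by the same edgeR test, where 15 members had an unadjusted p under 0.05 and DESeq2 called 11 members. These 9 are 25.7% of the tested members, against 16.7% of all genes tested, of which 12.4% were higher and 4.3% lower. The median log2 fold change of the tested members was 0.94 with azacytidine and 0.89 with decitabine, against 0.033 and 0.036 for all genes. Both comparisons share the DMSO libraries, and members with almost no read in DMSO were tested only because the drug groups raised them over the filter on low counts, so these shares and medians describe the tested members and are no evidence about the family.

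Cdh19, a type II cadherin known from Schwann cell precursors (chromosome 1, 110888326 to 110977584, minus strand, mm10), had the highest level per length of the unclustered members with either drug. It had 1550 and 2806 reads (101 and 167 CPM) with azacytidine, 2266 and 3156 reads (116 and 172 CPM) with decitabine, and 1 and 0 reads with DMSO. Every drug library lay far above both DMSO libraries. The ratio of azacytidine to DMSO was 5425, with an exact 95% counting interval of 973 to 214339, and that of decitabine to DMSO was 5714 (1025 to 225739). These intervals, like the others given for ratios here, cover counting error only. The adjusted p was 3.31e-06 with azacytidine and 3.46e-06 with decitabine. Of 8 tested Schwann and neural markers, 1 was higher and 2 were lower with azacytidine, and 1 was higher with decitabine. Their summed level was 120 and 90.4 CPM with azacytidine, 108 and 115 CPM with decitabine, and 95.9 and 96.6 CPM with DMSO.

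Pcdh18 and Pcdh19, non-clustered protocadherins of the delta group whose promoters are printed above, were read in all drug libraries and hardly in DMSO. Pcdh18 had 70 and 53 reads with azacytidine, 57 and 63 with decitabine, and 1 and 0 with DMSO. Its ratio to DMSO was 153 (27.0 to 6099) with azacytidine and 126 (22.3 to 5036) with decitabine, at adjusted p values of 0.000205 and 0.000333. Pcdh19, an X-linked gene altered in a human epilepsy, had 62 and 36 reads with azacytidine, 9 and 28 with decitabine, and 1 and 0 with DMSO. Its ratio to DMSO was 122 (21.4 to 4870) with azacytidine and 39.0 (6.58 to 1581) with decitabine, at adjusted p values of 0.00149 and 0.0106. The drug and DMSO libraries did not overlap for either gene. Without the second decitabine library the adjusted p of Pcdh19 with decitabine was 0.0673.

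Of the classical type I cadherins, Cdh2 (N-cadherin, of neural and mesenchymal cells) and Cdh1 (E-cadherin, of epithelia) were also higher with both drugs. Cdh2 had 62 and 42 reads (4.05 and 2.50 CPM) with azacytidine, 33 and 44 reads (1.68 and 2.40 CPM) with decitabine, and 1 and 3 reads (0.0503 and 0.150 CPM) with DMSO. Its log2 fold change was 4.94 ± 0.63 with azacytidine and 4.26 ± 0.63 with decitabine (± SE, adjusted p 0.000608 and 0.00171). The groups stood apart, and the call held without any single library. Cdh1 had 5 and 16 reads with azacytidine, 6 and 29 with decitabine, and none with DMSO. Against a floor of 3 reads over the DMSO group it was 8.72-fold higher with azacytidine and 12.3-fold higher with decitabine. These fold values leave out the counting error of the drug reads. The adjusted p values were 0.0289 and 0.0201. The libraries of each drug differed widely, and the azacytidine call was lost without either azacytidine or either DMSO library (adjusted p 0.0503 to 0.151). The decitabine call was lost without the second decitabine library (0.168) or the first DMSO library (0.0564). Epithelial markers moved in the same libraries: their summed level was 81.5 and 50.9 CPM with azacytidine, 51.1 and 68.0 CPM with decitabine and 6.53 and 4.93 CPM with DMSO, Elf3 made up most of it, and Krt14 was at 0 in all 6. Their part in the result for Cdh1 was not tested.

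Among type II cadherins already read in DMSO, Cdh22, described in pituitary and brain, was higher with both drugs. It had 36.5 and 20.7 CPM with azacytidine, 23.7 and 26.3 CPM with decitabine, and 10.5 and 10.8 CPM with DMSO. Its log2 fold change was 1.43 ± 0.28 with azacytidine (adjusted p 0.00596) and 1.23 ± 0.28 with decitabine (adjusted p 0.0141). All 4 drug libraries lay above both DMSO libraries. The call was lost without the first azacytidine library (0.0691) for azacytidine, and without the second decitabine library (0.0823) or the first DMSO library (0.0508) for decitabine.

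Cdh24, a type II cadherin that binds catenins, had 33.7 and 45.1 CPM with azacytidine, 10.1 and 25.4 CPM with decitabine, and 12.3 and 13.2 CPM with DMSO. It was higher with azacytidine, by 1.63 ± 0.37 on the log2 scale (adjusted p 0.0121, or 0.0890 without the second azacytidine library). With decitabine its libraries lay on both sides of the DMSO libraries and the log2 fold change was 0.48 ± 0.37 (adjusted p 0.430). Without the first decitabine library that value was 0.96, at an adjusted p of 0.0456.

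The member with the highest mean level per length in DMSO, Pcdh10, went the other way. This delta protocadherin is known as a gene silenced by promoter methylation in human cancers. It had 60.0 and 71.9 CPM with azacytidine, 93.0 and 87.9 CPM with decitabine, and 124 and 122 CPM with DMSO. The 3 groups did not overlap, with azacytidine lowest. The log2 fold change was -0.90 ± 0.16 with azacytidine (adjusted p 0.00422) and -0.45 ± 0.16 with decitabine (adjusted p 0.0935). Without the first azacytidine library the azacytidine value was -0.81, at an adjusted p of 0.0584, and DESeq2 gave decitabine an adjusted p of 0.0249.

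**Figure D1:**
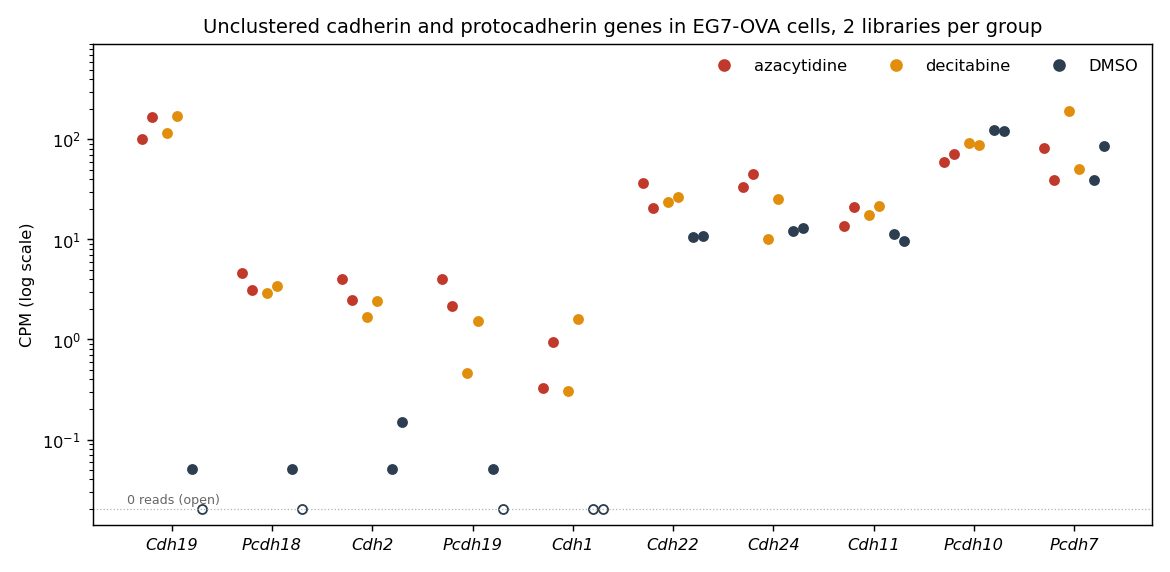
Levels of 10 unclustered members in EG7-OVA cells, in CPM on a log scale, with 1 point per library, and open circles on the dotted line for libraries with 0 reads. Cdh19 lies between 101 and 172 CPM in the 4 drug libraries and at or near 0 with DMSO, whereas Pcdh10 is highest with DMSO, at 124 and 122 CPM.

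The other unclustered members did not pass the test with either drug. Cdh11, a cadherin of mesenchyme and bone, came nearest. It had 13.7 and 21.2 CPM with azacytidine, 17.5 and 21.7 CPM with decitabine, and 11.4 and 9.72 CPM with DMSO, with groups that did not overlap (log2 fold change 0.73 ± 0.28 and 0.89 ± 0.28, adjusted p 0.0943 and 0.0534, and 0.0249 for decitabine by DESeq2). Cdh13, which has a lipid anchor in place of a cell-inner tail, had 3.07 and 2.50 CPM with azacytidine, 3.06 and 3.06 CPM with decitabine, and 0.955 and 1.94 CPM with DMSO (adjusted p 0.166 and 0.128, and 0.0456 for decitabine without the second DMSO library). Cdh23, a part of the tip links of inner-ear hair cells, had 8.10 and 7.69 CPM with azacytidine, 12.03 and 10.4 CPM with decitabine, and 6.28 and 7.38 CPM with DMSO (adjusted p 0.661 and 0.118). For all 3 genes the drug libraries lay above the DMSO libraries. The intestinal and kidney cadherins Cdh17, Cdh16 and Cdh6 were each at 2.06 CPM or less in every library, at adjusted p values of 0.427 or more.

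For the delta protocadherins Pcdh7, Pcdh1 and Pcdh9 and for Pcdh12, the groups overlapped. The libraries of a group lay far apart, except those of Pcdh12 with decitabine. Pcdh7 had 81.3 and 39.0 CPM with azacytidine, 193 and 50.9 CPM with decitabine, and 39.6 and 85.7 CPM with DMSO. Pcdh1, an airway protocadherin, had 15 and 5 reads with azacytidine, 0 and 7 with decitabine, and 0 and 44 with DMSO. Pcdh9 had 23 and 11 reads with azacytidine, 34 and 6 with decitabine, and 0 and 21 with DMSO. Pcdh12, a protocadherin of endothelium, had 13 and 0 reads with azacytidine, 3 and 4 with decitabine, and 1 and 33 with DMSO. Pcdh1, Pcdh9 and Pcdh12 thus differed between the DMSO libraries, the second being higher. The summed level of 8 B-cell markers differed between the same libraries, at 4.27 and 49.5 CPM, and its part in these values was not tested. Without that second DMSO library, Pcdh9 passed with either drug (adjusted p 0.0239 and 0.0279), and without the first one Pcdh1 was lower with decitabine (adjusted p 0.0418). Without the filter on low counts, Pcdh7 was higher (2.91e-05) and Pcdh1 (0.00703) and Pcdh12 (0.0475) lower with decitabine.

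Below the limit for testing, 6 described unclustered members had between 13 and 29 reads in total. Cdh12 had 3 and 9 reads with azacytidine, 3 and 3 with decitabine and none with DMSO. Against a floor of 3 reads over the DMSO group that is 4.98-fold and 2.11-fold. Pcdh11x, an X-linked protocadherin, had 5 and 6 reads with azacytidine, 1 and 3 with decitabine and none with DMSO. Against the same floor that is 4.57-fold and 1.41-fold. These fold values leave out the counting error of the drug reads, so they are no lower limits. Cdh15, the muscle cadherin, had 11 and 7 reads with azacytidine, 5 and 5 with decitabine, and 0 and 1 with DMSO, a ratio of 22.4 (3.54 to 934) and 10.5 (1.50 to 457). Cdh5, the cadherin of endothelium, had 5 and 3 reads with azacytidine, 4 and 4 with decitabine, and 0 and 1 with DMSO. These 4 genes were read in all 4 drug libraries and in at most 1 DMSO library. The other 2 were not: Cdh4 had 0 and 8 reads with azacytidine, 3 and 3 with decitabine, and 0 and 1 with DMSO, and Cdh10 had 5 and 0 with azacytidine, 5 and 1 with decitabine, and 0 and 2 with DMSO. Without the filter on low counts, edgeR called Cdh15 (adjusted p 0.00818), Cdh12 (0.0202) and Pcdh11x (0.0366) higher with azacytidine. It called none of these 6 members with decitabine.

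Per kilobase of exon, the order of the leading unclustered members differed between groups. With azacytidine it was Cdh19 (34.3 CPM per kb), Cdh24 (11.3), Cdh22 (7.73), Pcdh7 (5.89), Pcdh10 (4.15) and Cdh11 (3.09). With decitabine it was Cdh19 (36.8 CPM per kb), Pcdh7 (11.9), Cdh22 (6.75), Pcdh10 (5.69), Cdh24 (5.08) and Cdh11 (3.47). With DMSO it was Pcdh10 (7.75 CPM per kb), Pcdh7 (6.13), Cdh24 (3.64), Cdh22 (2.87) and Cdh11 (1.87). Cdh19 lay above every other member in both libraries of each drug, Cdh22 and Cdh24 overlapped in both drug groups, and Pcdh7 overlapped Cdh22 and Pcdh10 with both drugs and Pcdh10 with DMSO.

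**Figure D2:**
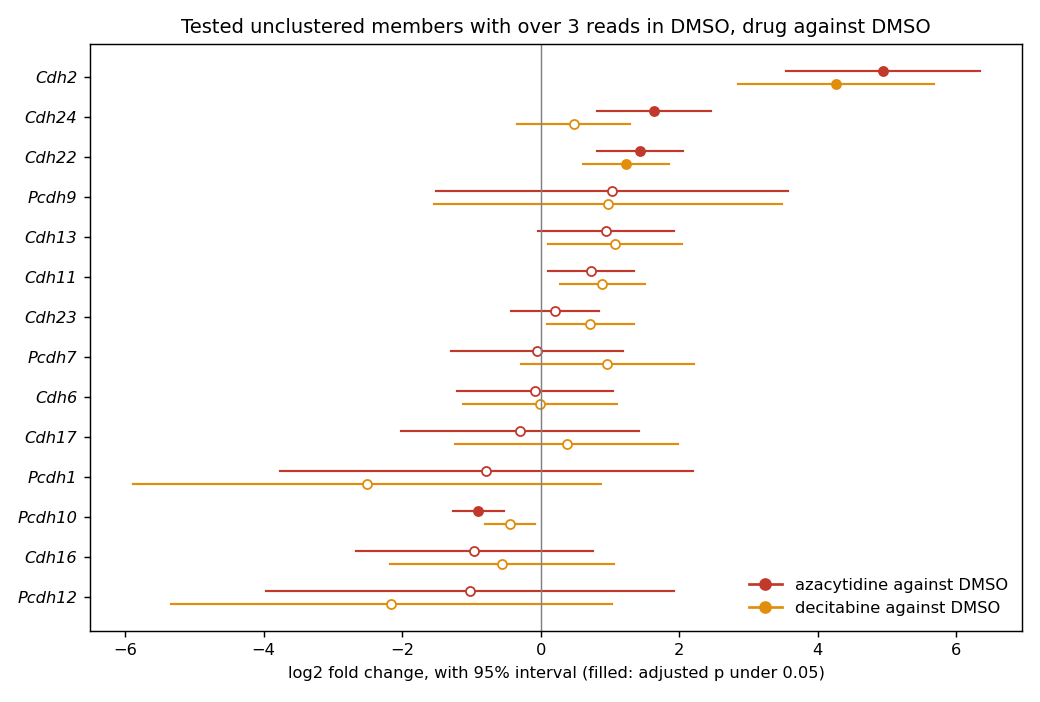
Log2 fold changes of the 14 tested unclustered members with over 3 reads in DMSO, with 95% intervals from edgeR, for azacytidine (upper line of each pair) and decitabine (lower line) against DMSO; filled points have an adjusted p under 0.05. Cdh2 and Cdh22 are filled for both drugs, Cdh24 and Pcdh10 for azacytidine, and the intervals of Pcdh1, Pcdh9 and Pcdh12 span 0 widely.

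Azacytidine at 1.5 µM was also set directly against decitabine at 0.2 µM, so the doses were not matched. No member of 35 passed by edgeR, and neither did any of the 19123 genes (0%), with 3 members and 1218 genes at an unadjusted p under 0.05. The 3 members were Cdh24, Pcdh10 and Pcdh19. Cdh24 had a log2 difference of 1.15 ± 0.36 (95% interval 0.34 to 1.97, adjusted p 0.509), Pcdh10 of -0.46 ± 0.16 (-0.82 to -0.09, adjusted p 0.616) and Pcdh19 of 1.64 ± 0.64 (0.22 to 3.06, adjusted p 0.675). Their azacytidine and decitabine libraries did not overlap. For Cdh19 the difference was -0.10 ± 0.27 (-0.69 to 0.49). DESeq2 also called no member and called 177 genes, whereas without the filter on low counts edgeR called Cdh24 (adjusted p 0.00205) and Pcdh7 (adjusted p 0.000145).

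The clustered protocadherins lie on chromosome 18 in the order Pcdha, Pcdhb, Pcdhg. In the annotation, Pcdha and Pcdhg genes share their last exons, so much of a gene's length is common to its cluster. Pcdhgc5 has 2622 of 4741 exon bases to itself, and Pcdhgb8 has 2499 of 4615. Bases that overlap an exon of any other annotated gene, on either strand, were counted as shared. By that count Pcdhga10 has none to itself, even outside the shared last exons. Pcdhga10 nevertheless had 219 reads in EL4 and 0 in EG7-OVA, so whether both tables were counted with the same annotation and settings is not known. Most Pcdhb genes have a single exon in the annotation, but Pcdhb genes are close copies of one another. Some also share exon bases with other annotated genes, such as Pcdhb12, with 1107 of 3034 to itself. How reads in shared or near-identical stretches were assigned is not stated, so values of single clustered genes are uncertain.

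In EG7-OVA cells the Pcdhg cluster was higher with both drugs in sum, Pcdha was almost unread, and Pcdhb was split by position. Summed over 22 genes, Pcdhg came to 26.3 and 32.9 CPM with azacytidine, 24.2 and 37.2 CPM with decitabine, and 8.80 and 18.3 CPM with DMSO. At least 1 read fell on 17 and 21 Pcdhg genes with azacytidine, 20 and 21 with decitabine, and 9 and 12 with DMSO. All 4 drug libraries exceeded both DMSO libraries in each measure. Pcdha genes together had 6 and 14 reads with azacytidine, 2 and 4 with decitabine and none with DMSO. No Pcdha gene reached 10 reads in either table.

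Of 17 clustered members tested in EG7-OVA cells, 5 were higher with azacytidine and 3 with decitabine, all of them in Pcdhg, and none was lower. These are 29.4% and 17.6% of the clustered members tested, against 20.3% and 16.7% of all genes, so the decitabine share lay near that of all genes. Some tested members, among them Pcdhgb2, were almost unread in DMSO and passed the filter on low counts only through the drug groups. Neither share is therefore evidence about the clusters. Pcdhga12 had 35 and 46 reads with azacytidine, 18 and 47 with decitabine, and 5 and 7 with DMSO (log2 fold change 3.04 ± 0.61 and 2.51 ± 0.61, adjusted p 0.00667 and 0.0194). Pcdhgc4, one of the C-type genes at the end of the cluster, had 99 and 118 reads with azacytidine, 107 and 129 with decitabine, and 38 and 50 with DMSO (1.61 ± 0.35 and 1.50 ± 0.35, adjusted p 0.00981 and 0.0160). Pcdhgb8 had 23 and 39 reads with azacytidine, 29 and 39 with decitabine, and 3 and 11 with DMSO (2.43 ± 0.62 and 2.34 ± 0.62, adjusted p 0.0203 and 0.0273). In these 3 genes no drug library overlapped a DMSO library. Pcdhgb2 had 10 and 11 reads with azacytidine, 5 and 10 with decitabine, and 0 and 1 with DMSO, a ratio of 26.2 (4.21 to 1082) and 15.8 (2.43 to 665), at adjusted p values of 0.0204 and 0.0571. Pcdhga11 had 21 and 11 reads with azacytidine, 4 and 10 with decitabine, and 4 and 3 with DMSO, and passed only narrowly with azacytidine (adjusted p 0.0497), a call that was lost without any 1 of the 6 libraries (0.0602 to 0.361). With decitabine its adjusted p was 0.448. Without the second decitabine library, the decitabine calls of Pcdhga12, Pcdhgb8 and Pcdhgc4 were lost as well (adjusted p 0.120 to 0.198), and so they were without the first DMSO library (0.0781 to 0.126). The azacytidine calls of Pcdhgb8 and Pcdhgb2 were lost without the second azacytidine library (0.114 and 0.107) or the first DMSO library (0.0898 and 0.113), that of Pcdhgb2 without the first azacytidine library (0.116), and that of Pcdhgc4 without the second azacytidine library (0.0512).

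The gene with the most reads of the clusters, Pcdhgc5, did not pass. It had 11.04 and 12.9 CPM with azacytidine, 13.7 and 18.9 CPM with decitabine, and 5.33 and 12.9 CPM with DMSO (adjusted p 0.519 and 0.177). Without the second DMSO library it passed with either drug (0.0460 and 0.0114). With Pcdhgc5 left out, the rest of the Pcdhg cluster summed to 15.3 and 19.97 CPM with azacytidine, 10.5 and 18.3 CPM with decitabine, and 3.47 and 5.48 CPM with DMSO, again without overlap.

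Within Pcdhb, most reads sat at one end of the cluster in each group of EG7-OVA cells. With the cluster divided after Pcdhb13, a split chosen after the values were seen, Pcdhb14 to Pcdhb22 summed to 8.76 and 24.1 CPM with azacytidine, 10.7 and 22.2 CPM with decitabine, and 10.9 and 10.0 CPM with DMSO. The second library of each drug lay above both DMSO libraries and the first did not, and none of the 8 tested Pcdhb genes passed with either drug. Pcdhb1 to Pcdhb13 together had 18 and 21 reads with azacytidine, 7 and 15 with decitabine, and 1 and 3 with DMSO.

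**Figure D3:**
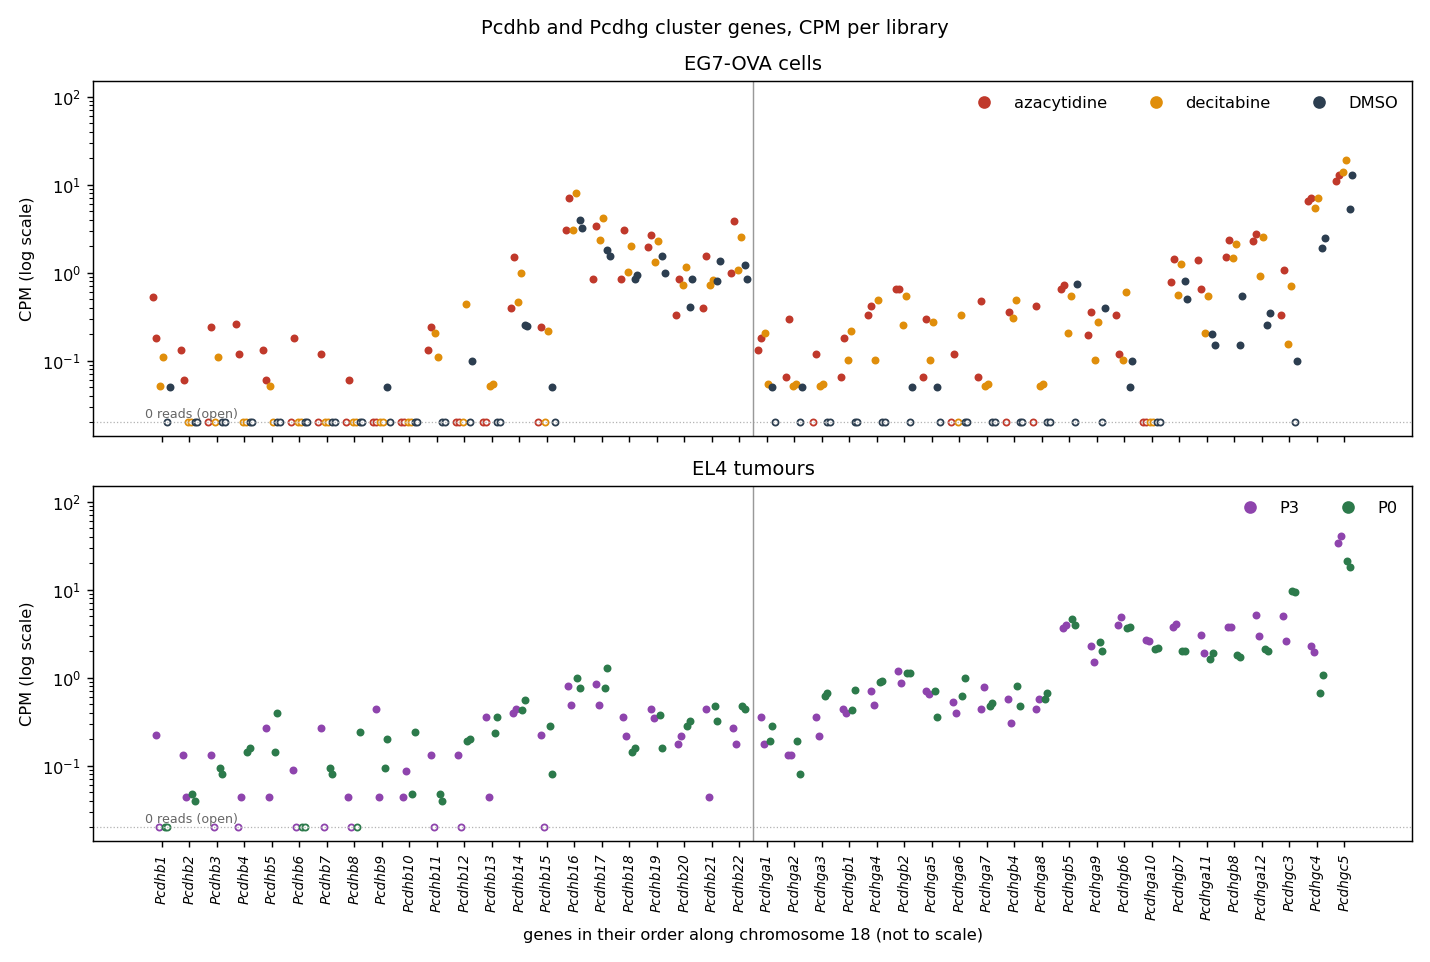
Levels of the Pcdhb (left of the line) and Pcdhg (right) genes in their order on chromosome 18, in CPM on a log scale, with 1 point per library and open circles for 0 reads; EG7-OVA cells above, EL4 tumours below. In EG7-OVA cells the reads gather at the right end of each cluster, and 9 and 12 of 22 Pcdhg genes have a read with DMSO against 17 to 21 with the drugs.

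Partners of the cadherins were taken from lists. These are described by counts, medians and the values of named genes, and no list was tested as a set. Of 15 tested catenins and junction linkers, 4 were higher and 1 lower with azacytidine, and 5 were higher and 1 lower with decitabine. The higher ones included the plakophilin Pkp3 (12.7 and 13.9 CPM with azacytidine, 9.02 and 14.04 CPM with decitabine, 0.905 and 1.59 CPM with DMSO), the delta-catenin Ctnnd2 and the actin binder Lima1. Ctnnb1 (beta-catenin) had log2 fold changes of -0.02 ± 0.18 and -0.02 ± 0.18 and did not pass. The list median was 0.24 with azacytidine and 0.12 with decitabine, against 0.033 and 0.036 for all genes. Of 11 tested genes of the wider cadherin superfamily, 4 were higher with azacytidine and 3 with decitabine, and none was lower. Celsr1, a cadherin of planar cell polarity, had 35.3 and 33.8 CPM with azacytidine, 24.5 and 28.6 CPM with decitabine, and 7.39 and 7.53 CPM with DMSO. The giant cadherin Fat4 had 39 and 48 reads with azacytidine, 5 and 12 with decitabine, and 0 and 1 with DMSO, and Celsr2 was also higher with both. The list median was 2.21 and 1.83. Of the catenin list 33.3% and 40% passed, and of the superfamily list 36.4% and 27.3%, against 20.3% and 16.7% of all genes. Some of the tested genes, among them Fat4 and Ctnna2, were almost unread in DMSO and passed the filter on low counts only through the drug groups. These shares and medians are therefore no evidence about either list.

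Of 12 tested transcription factors that act on Cdh1, 6 were higher and 1 lower with azacytidine, and 5 were higher with decitabine, with list medians of 0.60 and 0.55. The named ones include factors that repress Cdh1 and one of the grainyhead family that acts in epithelia. Tcf4 had 17.9 and 11.98 CPM with azacytidine, 7.70 and 10.6 CPM with decitabine, and 0.151 and 0.150 CPM with DMSO. Zeb2, a repressor of Cdh1, had 125 and 55 reads with azacytidine, 72 and 37 with decitabine, and 0 and 2 with DMSO. Grhl3 averaged 10.1 CPM with azacytidine, 7.44 CPM with decitabine and 1.50 CPM with DMSO. Of 10 tested sheddases and proteases, 4 were higher with azacytidine and 2 with decitabine, with list medians of 0.45 and 0.33. The matrix protease Mmp9 had 48 and 17 reads with azacytidine, 34 and 48 with decitabine, and 0 and 2 with DMSO, and Adam15 and the gamma-secretase subunit Ncstn were also higher with azacytidine. Of the factors 58.3% and 41.7% passed, and of the proteases 40% and 20%, against 20.3% and 16.7% of all genes. Zeb2 and Mmp9 were almost unread in DMSO and passed the filter on low counts only through the drug groups. The lists were also chosen with earlier results known, so nothing is read from these shares and medians.

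Of 23 tested genes for CTCF, cohesin and silencers of the clustered protocadherins, 2 were higher and 2 lower with each drug, with list medians of -0.13 and -0.34. Atf7ip, a partner of the histone methyltransferase Setdb1, had 535 and 552 CPM with azacytidine, 447 and 445 CPM with decitabine, and 161 and 185 CPM with DMSO. Dnmt3a, a DNA methyltransferase, was higher with both drugs (log2 fold change 0.94 ± 0.19 and 0.80 ± 0.19). Smchd1, which keeps clustered protocadherins silent, had 133 and 147 CPM with azacytidine, 192 and 124 CPM with decitabine, and 268 and 236 CPM with DMSO, and passed with azacytidine (-0.85 ± 0.21, adjusted p 0.0187). Dnmt1, the methyltransferase that maintains methylation, had 493 and 477 CPM with azacytidine, 344 and 372 CPM with decitabine, and 637 and 585 CPM with DMSO, and passed with decitabine (-0.77 ± 0.16, adjusted p 0.00988). The list of genes beside the clusters held 19 symbols, of which 18 lie on chromosome 18 in the annotation and Relch does not, and Relch was left out. Of the 15 others tested, 3 were higher with azacytidine (Cd14, Fchsd1 and Taf7) and 2 with decitabine (Cd14 and Taf7), with medians of -0.0025 and 0.095. That is 20% and 13.3% of them, and the CTCF list had 17.4% called with each drug, against 20.3% and 16.7% of all genes, so these shares are no result about either list.

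In EL4 tumours the changes ran both ways. P3 tumours had more Pcdh9, Pcdh7, Cdh17, Cdh23 and Cdh24 and less Cdh11, Cdh1, Cdh22 and Pcdh12 than P0 tumours. Of 42 members tested, 9 were higher and 5 lower in P3 (edgeR quasi-likelihood test, adjusted p under 0.05). That is 33.3% of the tested members, against 38.7% of all 19993 genes tested, of which 18.8% were higher and 19.9% lower, so the share is no result about the family. The median log2 fold change was -0.10 for the members and -0.0019 for all genes. All 14 calls remained without either P3 library, whereas without either P0 library no member and none of the 21156 or 21048 genes tested passed in edgeR, and DESeq2 called 9 of the 14. In such bulk tumours, fewer cells of a type and less RNA per cell cannot be told apart.

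Pcdh9, a delta protocadherin best known from the brain, was the unclustered member with the highest level per length in the tumours and the largest rise in P3 among the 19 tested. It had 38652 and 33076 reads (1709 and 1452 CPM) in P3 and 5901 and 8252 reads (279 and 328 CPM) in P0. Both P3 libraries lay far above both P0 libraries, and the log2 fold change was 2.38 ± 0.16 (adjusted p 0.00108). Pcdh7, of the same group, had 175 and 168 CPM in P3 and 93.7 and 93.7 CPM in P0 (0.87 ± 0.08, adjusted p 0.00239). Per kilobase of exon, Pcdh9 stood at 242 CPM per kb in P3 and 46.6 in P0, and Pcdh7 at 16.8 and 9.18. In P3 Cdh17 (11.5), Cdh24 (7.78), Cdh5 (6.94) and Pcdh12 (5.54) followed, with Cdh17, Cdh24 and Cdh5 overlapping and Pcdh12 within the range of Cdh5, and in P0 Cdh5 (6.996), Pcdh12 (6.98), Cdh24 (5.11) and Cdh17 (3.71) did, with Cdh5 and Pcdh12 overlapping.

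Cdh17, the liver-intestine cadherin, had 65.3 and 37.8 CPM in P3 and 16.4 and 16.8 CPM in P0 (log2 fold change 1.64 ± 0.26, adjusted p 0.00832). Cdh23 had 28.3 and 23.5 CPM in P3 and 9.33 and 7.32 CPM in P0 (1.64 ± 0.19, adjusted p 0.00359). Cdh24 had 24.7 and 29.6 CPM in P3 and 18.1 and 17.5 CPM in P0 (0.61 ± 0.14, adjusted p 0.0228). The P3 and P0 libraries did not overlap for these 3 genes, and the P3 libraries of Cdh17 differed most.

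Among the lower genes, Cdh11 had 1.99 and 2.15 CPM in P3 and 10.8 and 9.51 CPM in P0 (log2 fold change -2.29 ± 0.22, adjusted p 0.00240). Fibroblast markers were lower in the same libraries, with a summed level over 12 genes of 1727 and 1062 CPM in P3 and 3086 and 3162 CPM in P0, all 12 read in each. By gene, 4 of the 12 were lower and 1, Pdgfrb, was higher. Their part in the result for Cdh11 was not tested. Cdh1 had 1.81 and 0.746 CPM in P3 and 4.31 and 4.10 CPM in P0 (-1.71 ± 0.44, adjusted p 0.0316), and Cdh22 had 1.77 and 1.49 CPM in P3 and 3.27 and 3.34 CPM in P0 (-1.02 ± 0.28, adjusted p 0.0359, or 0.0891 by DESeq2). The groups of all 3 genes stood apart. Epithelial markers did not separate the groups, with sums of 29.8 and 16.8 CPM in P3 and 29.0 and 17.03 CPM in P0. Macrophage markers summed to 342 and 327 CPM in P3 and 1339 and 1662 CPM in P0, and B-cell markers to 64.0 and 69.2 CPM in P3 and 280 and 471 CPM in P0, with Ms4a1 at 0 in the first P3 library. The part of these cells in the values of Cdh1 and Cdh22 was not tested.

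The endothelial members Cdh5 and Pcdh12 were read in all tumours. Pcdh12 had 31.8 and 30.2 CPM in P3 and 39.5 and 38.6 CPM in P0 (log2 fold change -0.33 ± 0.10, adjusted p 0.0482, or 0.0857 by DESeq2). Cdh5, known as VE-cadherin, had 34.7 and 20.8 CPM in P3 and 28.9 and 27.0 CPM in P0 and did not pass (-0.01 ± 0.25, adjusted p 0.9748). Without the first P3 library it was -0.41 at an adjusted p of 0.0220. Of 14 endothelial markers, 2 were lower and none higher in P3, and their sum was 282 and 202 CPM in P3 and 298 and 307 CPM in P0.

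The values of Cdh13 turned on which P3 library was used. It had 8.62 and 2.81 CPM in P3 and 5.59 and 5.37 CPM in P0, so the P3 libraries lay on both sides of P0 (log2 fold change 0.06 ± 0.51, adjusted p 0.932). Without the first P3 library it was -0.95 (adjusted p 0.00523), and without the second it was 0.65 (adjusted p 0.0134). The first P3 library also held skeletal muscle markers at 527 CPM in sum, with all 10 genes read, against 4.26 CPM in the second P3 library and 21.6 and 23.0 CPM in P0. Cdh18 followed that library too, with 23 and 2 reads in P3 and 0 and 1 in P0, a ratio of 25.5 (4.17 to 1046). The part of muscle in these values was not tested. Cdh15, the muscle cadherin, had 5 and 2 reads in P3 and 4 and 0 in P0.

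**Figure D4:**
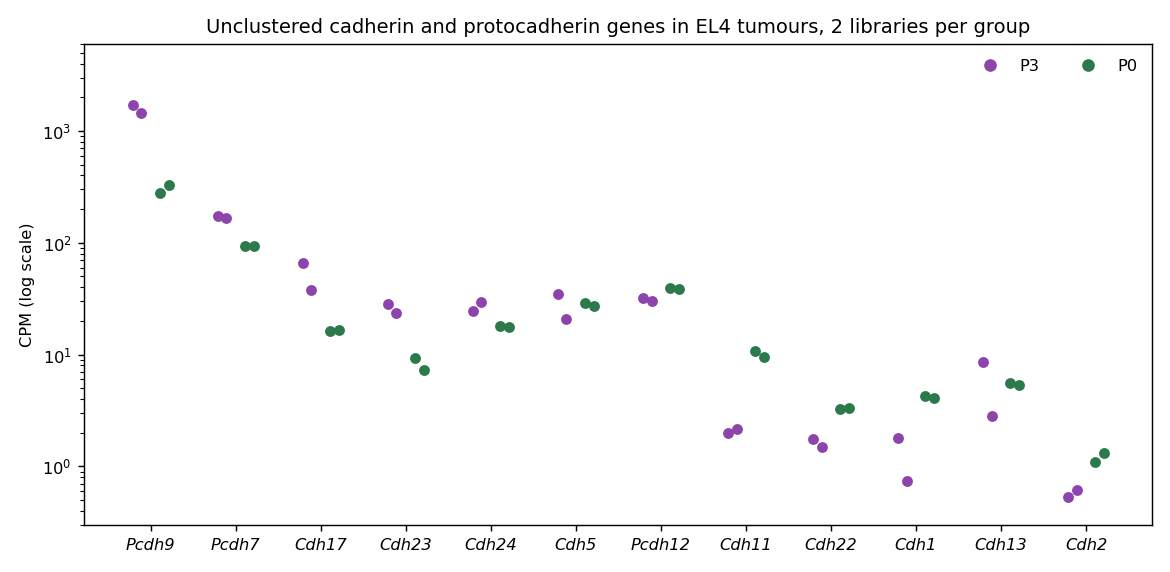
Levels of 12 unclustered members in EL4 tumours, in CPM on a log scale, with 1 point per library, P3 left of P0. Pcdh9 is at 1709 and 1452 CPM in P3 and 279 and 328 CPM in P0, Cdh11 is lower in P3, and the P3 libraries of Cdh5 and Cdh13 lie on both sides of the P0 libraries.

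The other tested unclustered members did not pass in EL4. Cdh2 had 12 and 14 reads in P3 and 23 and 33 in P0 (log2 fold change -1.06 ± 0.37, adjusted p 0.0666). Pcdh19 had 66 and 55 reads in P3 and 88 and 92 in P0 (adjusted p 0.144), and Pcdh18 had 14 and 24 reads in P3 and 32 and 29 in P0 (adjusted p 0.242). In these 3 genes both P3 libraries were lower than both P0 libraries. Pcdh17, a delta protocadherin, had 3.41 and 3.38 CPM in P3 and 2.13 and 2.47 CPM in P0 (adjusted p 0.140). Pcdh1 had 10.6 and 10.3 CPM in P3 and 11.03 and 7.68 CPM in P0, Pcdh15, the tip-link partner of Cdh23, had 3.14 and 3.47 CPM in P3 and 2.60 and 4.34 CPM in P0, and Cdh3, the placental cadherin, had 6 and 19 reads in P3 and 23 and 10 in P0. For Pcdh1, Pcdh15 and Cdh3 the groups overlapped. Cdh10 had 9 and 28 reads in P3 and 10 and 6 in P0 (adjusted p 0.214, or 0.0174 without the first P3 library). Below the limit for testing, Cdh20 had 4 and 10 reads in P3 and none in P0, 4.75-fold higher against a floor of 3 reads over P0, counting error aside.

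Among the clustered members of EL4, 23 were tested, of which 4 were higher and 1 lower in P3, all in Pcdhg. That is 21.7% of them, against 38.7% of all genes tested. Pcdhgc5 had 33.5 and 40.8 CPM in P3 and 21.1 and 17.9 CPM in P0 (log2 fold change 0.93 ± 0.15, adjusted p 0.00883). Its neighbour Pcdhgc4 had 52 and 45 reads in P3 and 14 and 27 in P0 (1.28 ± 0.37, adjusted p 0.0424), whereas Pcdhgc3 had 5.04 and 2.63 CPM in P3 and 9.56 and 9.27 CPM in P0 (-1.29 ± 0.34, adjusted p 0.0314). By these values the 3 C-type genes did not move together, but how reads in their shared exons were assigned is not known. Pcdhgb8 had 3.72 and 3.73 CPM in P3 and 1.80 and 1.71 CPM in P0 (1.08 ± 0.26, adjusted p 0.0255), and Pcdhgb7 had 3.72 and 4.08 CPM in P3 and 1.99 and 1.99 CPM in P0 (0.97 ± 0.26, adjusted p 0.0332). By DESeq2, Pcdhgb7, Pcdhgb8 and Pcdhgc4 did not pass (adjusted p 0.0523 to 0.112). Pcdhga12 did not pass (adjusted p 0.0793), but did without the second P3 library (0.000217), as did Pcdhga11 (0.0466). In sum, Pcdhg came to 74.8 and 76.0 CPM in P3 and 58.5 and 54.6 CPM in P0. With Pcdhgc5 left out, the sums were 41.4 and 35.2 CPM in P3 and 37.4 and 36.6 CPM in P0 and overlapped. All 22 Pcdhg genes had a read in each tumour library. Pcdhb summed to 6.19 and 2.72 CPM in P3 and 5.35 and 6.09 CPM in P0, and none of the 3 tested Pcdhb genes passed.

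Of 18 tested catenins and junction linkers in EL4, 2 were higher and 7 lower in P3, with a list median of -0.36. Pkp1, a plakophilin of desmosomes, had 3 and 3 reads in P3 and 1123 and 1457 in P0. The plakoglobin Jup had 30.9 and 31.6 CPM in P3 and 115 and 101 CPM in P0, and the focal adhesion kinase Ptk2 averaged 13.5 CPM in P3 and 40.5 CPM in P0. Of 17 tested genes of the wider cadherin superfamily, 2 were higher and 5 lower, with a list median of -0.65. The desmosomal cadherin Dsg1c had 163 and 99.7 CPM in P3 and 20.5 and 16.2 CPM in P0, whereas Dsc2 had 1 and 1 reads in P3 and 57 and 83 in P0, and Fat1 was lower (-1.34 ± 0.13). Of 12 tested transcription factors that act on Cdh1, 1 was higher and 5 were lower in P3, with a list median of -0.84, where Grhl2 had 27.4 and 34.5 CPM in P3 and 85.1 and 78.5 CPM in P0, and Zeb2 and Tcf4 were lower too. Of 18 tested genes beside the clusters on chromosome 18, 8 were higher and none lower, among them Diaph1, Apbb3 and Fchsd1, with a median of 0.27. Of 23 genes for CTCF, cohesin and silencers, 2 were higher and 4 lower, among them Trim28 (-0.84 ± 0.12) and Uhrf1 (-0.79 ± 0.12) lower and Atf7ip (0.51 ± 0.08) higher, with a list median of -0.05. Of 11 tested sheddases and proteases, 3 were higher and 2 lower, with Mmp9 and Adam15 higher and Psen2 lower and a list median of -0.0062. The shares called ran from 26.1% for the CTCF list to 50% for the catenins and for the factors that act on Cdh1, with 44.4% for the chromosome 18 genes, against 38.7% of all genes, and nothing is read from them.

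The tables were normalized separately and may have been counted differently, so levels were not tested between EG7-OVA cells and EL4 tumours, and they are given side by side. Pcdh9 had at least 279 CPM in each tumour and at most 1.73 CPM in each EG7-OVA library. Pcdh10 had at least 60.0 CPM in each EG7-OVA library and 0 and 0 reads in P3 and 1 and 2 in P0. Cdh19, which had over 100 CPM with either drug, had 2 and 0 reads in P3 and 10 and 1 in P0. Cdh1, Cdh2, Pcdh18 and Pcdh19, at 4 reads or fewer over the DMSO libraries, had between 12 and 103 reads in each tumour library.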

How the data were processed

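RNA sequencing gave a table for EL4 tumours and one for EG7-OVA cells. The EL4 table holds counts as deposited, whole-number reads per gene, and the EG7-OVA table holds estimated counts as deposited, since 145 of its values were not whole; these were rounded, and none belonged to a cadherin. Per the submitters' processing notes, fastp, Trim Galore, STAR, featureCounts and mm10 were used, with no versions or settings given, so strand use and the handling of shared reads are unknown. Members and lists were chosen with earlier results of these data known.

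The tables were fitted separately with edgeR 4.0.16 in R 4.3.3 (quasi-likelihood test, two-sided, filterByExpr, TMM, Benjamini-Hochberg over all genes tested, threshold 0.05), with 1 mean per group. CPM uses TMM-scaled libraries. Groups with 0 reads were set at a floor of 3 reads over the group, and groups with 1 to 3 reads are given as ratios with exact 95% intervals. Fold values against that floor leave out the counting error of the higher group. Positions and exon lengths are from GENCODE M21 (mm10). The fit was tested on simulated counts. Values are given per library for members past the threshold and for a fixed set of well-known members, and for up to 3 genes per list. DESeq2 1.42.0 served as an alternative, beside other size factors, no filter, a replicate block and leaving out each library.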

Additional observations from a re-analysis of the deposited data

How the results depend on the processing

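In P3 against P0 tumours, 14 members passed. DESeq2 called 9, the fit with a replicate block 8, and the fit without a filter on low counts 13, and leaving out 1 library gave 0 to 18. With azacytidine 13 passed, the fit without a filter called 19, DESeq2 11, and leaving out 1 library gave 7 to 14. With decitabine 9 passed, the fit without a filter called 17, DESeq2 11, and leaving out 1 library gave 3 to 12. Between azacytidine and decitabine 0 passed in edgeR, with 3 at an unadjusted p under 0.05 and 0 in DESeq2, the fit without a filter called 2, and leaving out 1 library gave 0. Where a group is left with 1 library, that library is assumed to vary like the others. Over all genes, the fit without a filter called 21.8% in P3 against P0, 15% with azacytidine, 12.7% with decitabine and 1.07% between the drugs. DESeq2 called 35.1%, 23.3%, 19.7% and 1.31%, in that order, and the replicate block 27.5% in P3 against P0. Without a filter all 61 described members of EL4 and 52 of EG7-OVA were fitted, against 42 and 35 with it. Leaving out 1 library also changed the share over all genes, so these counts are no result about the members. The cause of these changes was not tested.

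Pairing by replicate number is not given by the labels, and the numbers in the titles of the DMSO samples differ from those of their libraries, which are used here: deviations of same-numbered libraries correlated at -0.04 between P3 and P0, -0.26 between azacytidine and DMSO, -0.19 between decitabine and DMSO and 0.27 between azacytidine and decitabine. With the replicate block, 13 members passed with azacytidine and 9 with decitabine, and the log2 fold change was -0.13 for Cdh13 in P3 against P0 and 0.35 for Pcdh1 with azacytidine, both of the opposite sign to the fit without it and neither past the threshold.

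Leaving out 1 library turned the sign of some members that had not passed. In P3 against P0 the log2 fold change ran over -0.083 to 0.43 for Pcdh1, -1.44 to 0.45 for Cdh3, -0.40 to 0.34 for Pcdh15, -0.95 to 0.65 for Cdh13 and -0.41 to 0.31 for Cdh5. With azacytidine against DMSO it ran over -1.87 to 6.52 for Pcdh1, -0.92 to 0.71 for Cdh17 and -0.71 to 0.55 for Pcdh7. With decitabine against DMSO it ran over -0.34 to 1.61 for Pcdh7, -7.34 to 4.79 for Pcdh1, -0.70 to 7.23 for Pcdh9 and -0.23 to 1.39 for Cdh17. Between azacytidine and decitabine it ran over -1.70 to 0.25 for Pcdh7, -0.014 to 0.51 for Pcdh18, -1.51 to 1.04 for Cdh1, -0.53 to 0.11 for Cdh11 and -0.70 to 1.70 for Pcdh9. No named member past the threshold changed sign under these settings. With 2 libraries a group, members with few reads are limited by depth as well as by the spread.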
